A study of Mus musculus with 6 samples.

Results

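The transcripts described here are those of the p53 pathway's core: the gene of the transcription factor itself (Trp53), its inhibitors Mdm2 and Mdm4, and 7 of its targets outside apoptosis (Ccng1, Trp53inp1, Sesn1, Sesn2, Zmat3, Phlda3 and Ddb2). Members were taken as every array probe whose platform gene symbol was 1 of these 10 names. No probe carried the symbol Trp53 in the annotation used, so the transcript of p53 was not analysed here. The other 9 genes had 26 probes of the 45281 on the array. RNA came from Sertoli cells, the somatic supporting cells of the seminiferous tubule, of mice 6 weeks of age on a mixed C57B6J/129SvEv background, sorted by fluorescence for a Sox9-GFP reporter. The cKO group (3 arrays) carried Rb1 flox/- with Amh-Cre +, in which the Sertoli cell promoter of Amh drives the recombinase. The control group (3 arrays) carried Rb1 flox/- without Cre, so both groups had a null allele of the retinoblastoma gene Rb1. Whether replicates were separate animals is not stated in the labels, and p-values therefore measure only a spread between arrays that may be technical. Only cKO mice had Cre, so an effect of Cre and one of losing Rb1 cannot be told apart.

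The p53 protein is made continuously and destroyed almost as fast, because Mdm2, an E3 ubiquitin ligase, marks it for the proteasome and Mdm4, a relative without strong ligase activity, blocks its transactivation domain. When DNA damage or oncogenic stress frees p53 from these inhibitors, it activates genes that slow the cell cycle, repair DNA, curb growth signalling or kill the cell, and it also activates Mdm2, which closes a negative feedback loop. Loss of the Rb protein releases E2F factors, and E2F1 can act on this loop through the Arf product of Cdkn2a, which holds Mdm2 away from p53. Since p53 is controlled mainly at the protein level, arrays read its activity only through such target transcripts.

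Both Rb1 probes had lower values in cKO and separated the groups. Probe ILMN_2861644 read 10.37, 9.92 and 9.36 in the cKO group and 10.53, 11.08 and 10.98 in the control group, on the normalised log2 scale used for all levels here, with values in the order of replicates 1 to 3. Probe ILMN_2679619 read 8.24, 7.73 and 7.44 against 9.10, 9.34 and 8.64. Neither passed the threshold over all probes (adjusted p = 0.668 and 0.399), and where these probes lie in relation to the floxed segment was not determined. The arrays cKO replicate 1 and control replicate 3 lay at the opposite ends of the first principal component (-113.9 and 110.2, the other arrays between -34.3 and 31.4). Of 14 mature Sertoli marker genes with a probe, 11 were detected on all 6 arrays, among them Sox9, Gata4 and Fshr. Markers of other testis cells were mostly present in both groups and mostly higher in cKO, and their part in the results below was not tested. The median difference was 0.68 over 9 tested spermatogonia genes (8 positive), 0.51 over 9 spermatocyte genes (9 positive), 0.43 over 10 spermatid genes (7 positive), 0.84 over 6 peritubular genes (6 positive), 1.26 over 5 Leydig genes (4 positive), 1.02 over 6 leukocyte genes (5 positive) and 1.13 over 8 endothelial genes (8 positive). The mature Sertoli genes had a median of -0.43 (13 of 13 negative). Over all tested genes the median was 0.12 and 61.3% of differences were positive, a share near that of the spermatid genes. Among the tested markers, Star (Leydig) and Ret (spermatogonia) were detected on cKO arrays alone. Both therefore entered these counts and medians only through the group in which they were high. None of these marker genes passed the test. Summed linear levels of the endothelial list ran from 1658 to 4102 on cKO arrays and from 414 to 739 on controls, without overlap. Much of that gap came from 1 gene, Robo4, which had the highest difference of the list, at 3.69. It read 11.46, 9.96 and 10.22 in cKO against 6.97, 7.32 and 6.29 in controls. The peritubular sums (10870 to 20596 against 5432 to 10115) and the spermatogonia sums (4698 to 5727 against 3717 to 4652) did not overlap either. The Leydig sums (2326 to 8616 against 1196 to 2982), the leukocyte sums (8212 to 8454 against 6819 to 9849), the spermatocyte sums (25047 to 35675 against 16928 to 30476), the spermatid sums (102408 to 131760 against 92844 to 121099) and the mature Sertoli sums (61527 to 70788 against 69315 to 78838) did. The leukocyte antigen Ptprc, the endothelial receptor Kdr, Itgam, Hsd3b1, Cnn1, Tagln, Zbtb16, Nanos2, Nanos3, Sycp3, Hormad1 and Dmc1 were detected on no array. In such bulk RNA, fewer cells of a type and less RNA per cell cannot be told apart.

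No member passed the test, although several had higher values in cKO. Of the 26 member probes, 17 probes of 8 genes were detected on at least 3 of the 6 arrays and entered the test. The 9 others were all 3 probes of Sesn2, 4 of the 5 of Mdm4, 1 of the 2 of Phlda3 and 1 of the 4 of Ddb2, and 3 of these 9 were detected on no array. At an adjusted p under 0.05 in limma, 0 of 17 member probes were called, where 0.142% of all 21805 tested probes were called higher in cKO and 0% lower. The smallest adjusted p of a member was 0.272, for Ccng1. Without a block, at an unadjusted p under 0.05 there were 2 member probes, both higher in cKO (1 of Ccng1 and 1 of Trp53inp1), where 4.63% of all tested probes were higher and 1.76% lower at that level. With the replicate number of the titles as a block, limma called 0 of all probes (31 without it), with 3257 probes at an unadjusted p under 0.05 (1975 higher, 1282 lower), and the smallest adjusted p of a member was 0.216. Those 3257 were out of 21805 tested probes, against 1393 at that level without the block. In that blocked fit 5 of the 17 member probes had an unadjusted p under 0.05 in limma, and 2 of them were lower in cKO. Those higher were Ccng1 ILMN_2500276 (limma, adjusted p = 0.216), Trp53inp1 ILMN_2971479 (adjusted p = 0.314) and Mdm2 ILMN_1250774 (adjusted p = 0.320). Those lower were Sesn1 ILMN_3059476 (limma, adjusted p = 0.252) and Ddb2 ILMN_1229502 (adjusted p = 0.265), for both of which cKO lay below control in each of the 3 same-numbered pairs. The 31 calls over all probes also became 0 without control replicate 1, 2 or 3, with 2622, 1058 and 874 probes at an unadjusted p under 0.05, and 8, 2 and 15 without cKO replicates 1, 2 and 3.

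The 3 cKO arrays lay above the 3 controls for 4 of the 17 tested probes (1 each of Ccng1, Trp53inp1, Mdm2 and Zmat3) and below them for 0, where 8.04% of all tested probes lay above and 4.01% below. Differences were positive for 9 of 17 member probes, a share near that of all tested probes (57%). The median difference over the brightest tested probe of each of the 8 genes was 0.50, beside 0.12 over 12277 tested genes. Over all 17 tested member probes it was 0.09, beside 0.08 over all tested probes, and over all 26 member probes it was -0.02. With the mean over the tested probes of each gene in place of the brightest, the gene median was 0.36. With the brightest probes it was 0.29 without cKO replicate 1. Relative to the control mean, the median of the 8 genes was 0.49, 0.53 and 0.43 in cKO against -0.17, 0.28 and -0.18 in controls.

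**Figure D1:**
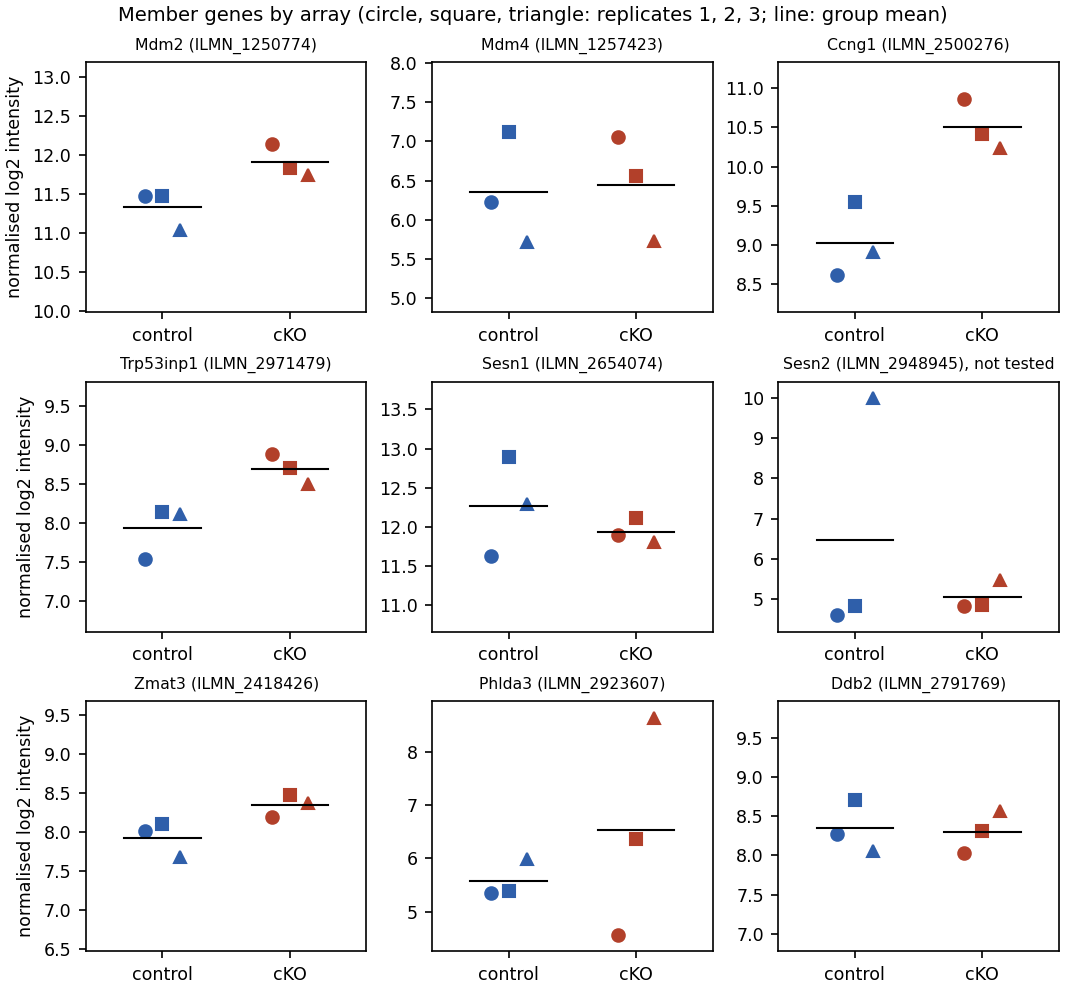
Normalised log2 intensity (vertical axis) of the brightest tested probe of each member gene, and of the brightest Sesn2 probe, which was not tested, on the control and cKO arrays; symbols mark replicates 1 to 3, lines the group means, and panels have their own scales. The cKO arrays lie above the controls for Mdm2, Ccng1, Trp53inp1 and Zmat3, whereas control replicate 3 alone is high for Sesn2 and cKO replicate 3 alone for Phlda3.

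**Figure D2:**
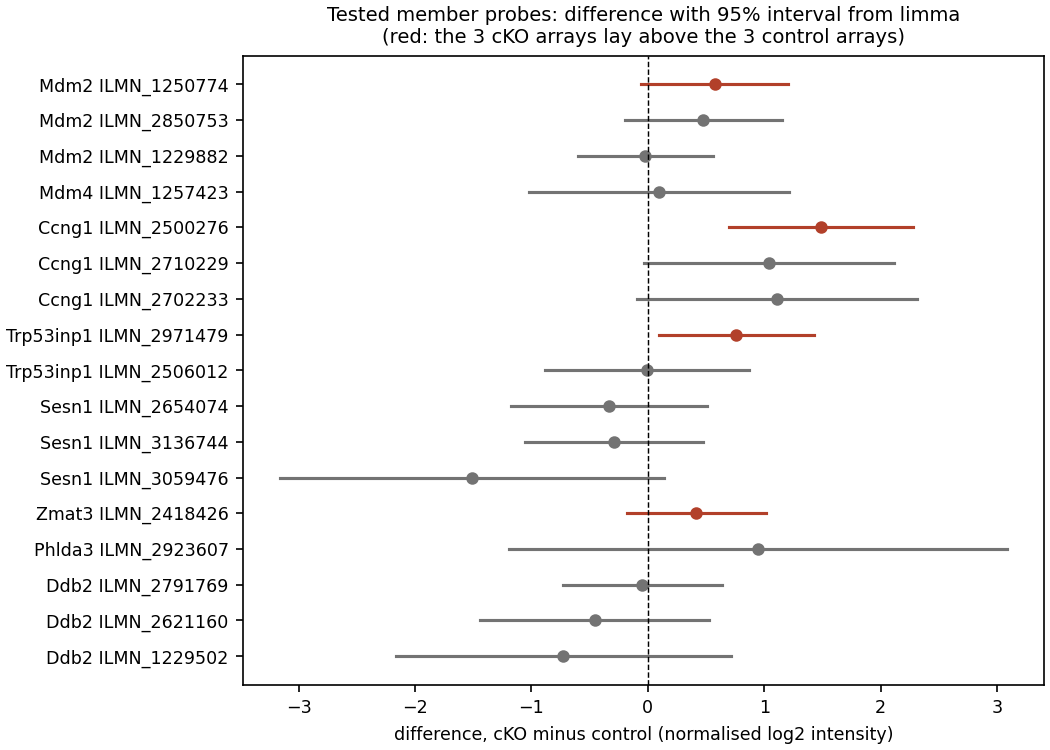
Difference cKO minus control on the log2 scale (horizontal axis) with its 95% interval from limma for the 17 tested member probes; red marks probes for which the cKO arrays all lay above the controls. Intervals lie above 0 for 1 Ccng1 probe and 1 Trp53inp1 probe, and the widest belongs to Phlda3.

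Among the inhibitors of p53, Mdm2 was higher in cKO by its 2 bright probes and level by its dim one, without passing the threshold. Probe ILMN_1250774 read 12.13, 11.83 and 11.74 on the cKO arrays and 11.47, 11.47 and 11.04 on controls. Its groups did not overlap, and the gap between the lowest cKO and the highest control array was smaller than the range within each group. The difference was 0.57 ± 0.27 (SE), a ratio of 1.49 with a 95% interval from 0.96 to 2.30 (adjusted p = 0.766), and it was 0.31 without both arrays that stood apart. Probe ILMN_2850753 read 11.30, 11.57 and 12.01 in cKO and 11.33, 11.17 and 10.94 in controls, so cKO replicate 1 lay within the control range; its difference was 0.48 ± 0.29. The remaining probe, ILMN_1229882, sat close to background at 5.35 to 5.69 on all arrays, with a difference of -0.02 ± 0.25.

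Mdm4 was measured by 1 usable probe, which did not separate the groups. Probe ILMN_1257423 read 7.06, 6.56 and 5.72 in the cKO group and 6.23, 7.12 and 5.71 in the control group. The values of the groups covered the same range, the difference was 0.09 ± 0.48 (interval -1.02 to 1.21), and its sign turned without cKO replicate 1 (-0.21), without control replicate 3 (-0.23) and without both (-0.54). Of its other probes, ILMN_1252838 was detected on control replicate 3 alone, at 6.87 against 4.47 to 4.60 on the other 5 arrays. ILMN_1227293 was likewise detected on that array alone, at 5.39 against 4.29 to 4.36.

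Ccng1, which encodes cyclin G1, an early p53 target that recruits a phosphatase to Mdm2, had the largest positive difference of the members. Its brightest probe, ILMN_2500276, read 10.87, 10.42 and 10.24 in cKO against 8.61, 9.55 and 8.91 in controls. All 3 cKO arrays exceeded all 3 controls, with control replicate 2 nearest to them. Before normalisation the probe's mean intensity was 2093 ± 61.2 (SE between beads), 1589 ± 49.3 and 1201 ± 52.3 in cKO and 418 ± 10.7, 687 ± 23.8 and 532 ± 18.5 in controls, so the error between beads was far below the spread between arrays. The difference was 1.49 ± 0.34 (SE), a ratio of 2.80 with a 95% interval from 1.62 to 4.84 (unadjusted p = 0.00274, adjusted p = 0.272). Without both arrays that stood apart it was 1.25.

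The other 2 Ccng1 probes also had positive differences but did not separate the groups. ILMN_2710229 read 8.76, 7.62 and 7.25 in cKO and 6.43, 6.67 and 7.39 in controls. ILMN_2702233 read 8.83, 7.60 and 6.83 against 6.34, 6.53 and 7.07. For both, cKO replicate 3 lay below control replicate 3, while the remaining cKO arrays exceeded all controls. Their differences were 1.04 ± 0.46 and 1.11 ± 0.51 (adjusted p = 0.766 for both), and without cKO replicate 1 they were 0.60 and 0.57.

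The genes whose profile over the 6 arrays was nearest to that of ILMN_2500276 were Cfi, Ccdc80 and Itpripl1. Likeness was the root mean square distance between profiles centred on each probe's mean, over the brightest tested probe of 11687 named genes. The distances were 0.14, 0.14 and 0.16, where the median over these genes was 0.81. Cfi, the complement protease factor I, read 8.98, 8.36 and 8.23 in cKO and 6.88, 7.78 and 7.20 in controls. Ccdc80, a secreted matrix protein, read 6.92, 6.24 and 6.47 against 4.82, 5.49 and 5.03, and was detected on 2 control arrays. Itpripl1 read 10.68, 10.10 and 9.96 against 8.67, 9.34 and 9.00. None of the 3 passed the threshold.

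The promoter windows of the members were searched for the letters that p53 binds. RefSeq (GRCm38.p6) windows of 300 bases, from 250 before to 50 after an annotated start, were at hand for 7 of the 10 genes (9 windows, with 2 each for Mdm4 and Sesn1). The p53 decamer, the unit that occurs as a pair in p53 response elements, was searched without mismatch on both strands, where its own reverse complement is the same pattern. Ccng1, Mdm2, Trp53 and 1 of the 2 Sesn1 windows held 1 decamer each, and the other 5 windows held 0. Of 32851 windows in the table, 8.36% held one. A pair of decamers with at most 13 bases between them, again without mismatch, was in 0 of the 9 windows and in 0.0731% of all windows. Pairs with a mismatch were not counted. In the Ccng1 window the bases directly before the decamer depart from the pattern at 1 position, so the search did not count that stretch as a pair. The E2F words TTTCCCGC, TTTCGCGC, TTTGCCGC and TTTGGCGC, read on both strands, were in 0 of the 9 and in 2.26% of all windows. These matches describe the letters of the windows only. The windows of Ccng1 and Mdm2 are shown because these genes had probes with cKO above control, and that of Sesn1 because it held a decamer while its probes had negative differences. Capitals mark the decamer, which begins at -185, -186 and -173 from the annotated start, and each sequence runs 5′ to 3′ on the strand of the gene.
Ccng1 (chr11:40755237-40755536, minus strand): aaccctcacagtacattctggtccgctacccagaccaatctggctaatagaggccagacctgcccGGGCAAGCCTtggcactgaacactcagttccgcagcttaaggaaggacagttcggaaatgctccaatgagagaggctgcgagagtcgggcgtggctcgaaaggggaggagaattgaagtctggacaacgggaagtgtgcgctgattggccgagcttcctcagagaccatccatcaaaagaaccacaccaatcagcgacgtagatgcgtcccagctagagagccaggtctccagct
Mdm2 (chr10:117710709-117711008, minus strand): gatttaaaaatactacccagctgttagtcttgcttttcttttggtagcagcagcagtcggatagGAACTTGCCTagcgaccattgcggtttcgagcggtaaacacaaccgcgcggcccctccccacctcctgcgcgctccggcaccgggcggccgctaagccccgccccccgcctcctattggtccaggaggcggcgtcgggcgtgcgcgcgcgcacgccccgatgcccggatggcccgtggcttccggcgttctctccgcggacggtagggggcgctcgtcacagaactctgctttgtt
Sesn1 (chr10:41887189-41887488, plus strand): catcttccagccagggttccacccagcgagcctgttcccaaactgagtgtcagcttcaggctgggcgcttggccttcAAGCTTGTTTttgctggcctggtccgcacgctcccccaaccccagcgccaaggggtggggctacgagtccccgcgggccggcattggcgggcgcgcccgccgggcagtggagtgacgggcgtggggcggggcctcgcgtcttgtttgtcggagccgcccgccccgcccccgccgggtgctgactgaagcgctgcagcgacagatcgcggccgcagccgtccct
The Mdm2 window is that of its upstream start, and the first intron, where the p53-responsive promoter of Mdm2 is known to lie, was not searched.

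Trp53inp1, a p53-induced nuclear protein that promotes p53 phosphorylation and autophagy, gave different results by its 2 probes. ILMN_2971479 read 8.88, 8.70 and 8.50 on the cKO arrays and 7.54, 8.14 and 8.12 on controls. The cKO arrays all exceeded the controls, by a difference of 0.76 ± 0.28 (SE), a ratio of 1.70 with a 95% interval from 1.07 to 2.68 (unadjusted p = 0.0298, adjusted p = 0.709). ILMN_2506012 read 7.93, 7.99 and 8.64 in cKO and 7.80, 7.93 and 8.85 in controls. On this probe replicate 3 was the highest array of each group, the groups overlapped, and the difference was -0.01 ± 0.37.

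The sestrins, stress-induced proteins that restrain mTORC1 signalling and limit peroxides, had no positive difference by any tested probe. For Sesn1, ILMN_2654074 read 11.90, 12.11 and 11.80 in the cKO group and 11.62, 12.89 and 12.29 in the control group. ILMN_3136744 read 11.14, 11.76 and 11.53 against 11.35, 12.23 and 11.71. On both, control replicate 2 was the highest array and the groups overlapped, with differences of -0.33 ± 0.36 and -0.29 ± 0.33. Without control replicate 2 these were -0.02 and -0.05. The dim probe ILMN_3059476 had the most negative difference of the tested member probes, at -1.51 ± 0.70 (interval -3.16 to 0.14, adjusted p = 0.766). It read 4.57, 5.75 and 5.36 in cKO and 5.10, 7.31 and 7.81 in controls, so 2 controls were high and control replicate 1 lay within the cKO range. Without both arrays that stood apart its difference was -0.65, and without control replicate 1 it was -2.33.

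Sesn2 stood out by a signal on 1 array. Its probe ILMN_2948945 read 9.99 on control replicate 3, and 4.61 to 5.47 on the other 5 arrays. In linear intensity, control replicate 3 gave 1020 ± 26.3 (SE between beads), and the others gave 50.5 to 73.9. The only other array on which this probe was detected was cKO replicate 3. ILMN_1219984 was detected on control replicate 3 alone, at 7.52 against 4.41 to 4.56 elsewhere, whereas ILMN_1229465 was detected on no array (4.40 to 4.61). Both probes with signal were highest on control replicate 3, the array that stood apart among the controls, and Sesn2 could not be compared between the groups.

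Zmat3, an RNA-binding zinc finger protein induced by p53, was higher in cKO by its 1 probe, without passing the threshold. ILMN_2418426 read 8.18, 8.47 and 8.37 in cKO against 8.00, 8.09 and 7.67 in controls. The groups were separated by a narrow gap. The difference was 0.42 ± 0.26 (SE), a ratio of 1.34 with a 95% interval from 0.88 to 2.02 (adjusted p = 0.766).

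Phlda3, a pleckstrin homology protein that competes with Akt for membrane lipids, varied most within the cKO group. ILMN_2923607 read 4.57, 6.37 and 8.64 on the cKO arrays and 5.36, 5.38 and 5.99 on controls. The second probe, ILMN_2628567, which was detected on 2 arrays and not tested, read 4.39, 4.79 and 8.08 against 4.47, 4.60 and 5.58. On both probes cKO replicate 3 was the highest array and cKO replicate 1 the lowest. The first probe's difference was 0.95 ± 0.91 (interval -1.19 to 3.09). Replicate 3 decided it, since the difference was -0.11 without cKO replicate 3, 1.93 without cKO replicate 1 and 2.14 without both arrays that stood apart.

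Ddb2, the damage-binding subunit that starts global nucleotide excision repair, did not separate the groups by any probe. Its brightest, ILMN_2791769, read 8.03, 8.31 and 8.58 in the cKO group and 8.28, 8.72 and 8.06 in the control group, a difference of -0.05 ± 0.29 (interval -0.73 to 0.64). ILMN_2621160 read 5.19, 5.98 and 6.81 against 6.41, 6.64 and 6.30, and ILMN_1229502 read 4.48, 4.84 and 6.14 against 5.19, 5.40 and 7.04. On all 3 probes cKO replicate 1 was the lowest array. The differences of the dimmer 2 were -0.46 ± 0.42 and -0.73 ± 0.61. The fourth probe, ILMN_2655244, was detected on 2 arrays and read 4.46 to 5.41.

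**Figure D3:**
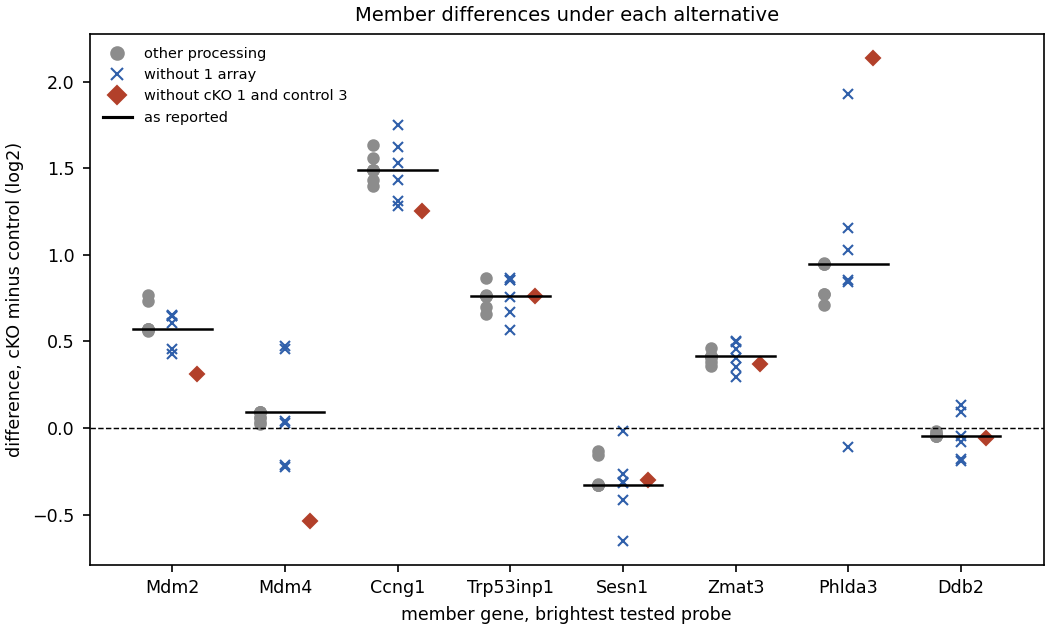
Difference cKO minus control on the log2 scale (vertical axis) for the brightest tested probe of each of the 8 tested member genes, as reported (line), under other processing (grey circles), without 1 array (crosses) and without cKO replicate 1 and control replicate 3 (red diamonds). Ccng1, Trp53inp1, Zmat3 and Mdm2 stay above 0 and Sesn1 below it in all of them, while Phlda3, Mdm4 and Ddb2 take both signs.

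Beyond the members, 37 further p53 targets and 25 regulators were listed, together with the relatives Trp63 and Trp73. Of the targets, 34 had a probe and 29 were tested. Adjusted over all probes, 1 passed as higher, the death receptor gene Fas, and 0 as lower, where 0.195% of all tested genes passed as higher. Fas was detected on cKO arrays alone, so it entered the test only through the group in which it was high. At an unadjusted p under 0.05, 5 targets, Fas among them, were higher and 0 lower, where 5.96% and 1.81% of all tested genes were. In 22 of the 29 the difference was positive, with a median of 0.30 beside 0.12 over all tested genes, of which 61.3% were positive. The cKO arrays lay above the controls for 6 and below for 2 of the 29, where 9.56% of all tested genes lay above and 4.33% below. Relative to the control mean, the target median was 0.55, 0.33 and 0.10 in cKO against -0.02, 0.17 and -0.13 in controls. Over all tested genes the same medians were 0.26, 0.14 and 0.03 in cKO and 0.07, 0.12 and -0.22 in controls, in the same order across the cKO arrays.

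Fas read 9.62, 8.79 and 8.53 on the cKO arrays and 4.76, 4.88 and 4.47 on controls by ILMN_2902979. The controls were all within background, so this probe was at least 15.4-fold higher in cKO (adjusted p = 0.0154 in limma). The bound sets the cKO mean against the control mean, after each control array was raised to its dimmest detected probe where Fas lay lower. The call was lost without control replicate 1, 2 or 3 and with the replicate block, where 0 probes passed. It rested on this 1 probe, since the other Fas probes were too rarely detected to be tested. ILMN_2479290, detected on 2 arrays, read 4.68, 5.50 and 6.36 in cKO, a rising order where ILMN_2902979 fell, against 4.51, 4.50 and 4.37. ILMN_2582933 was detected on 1 array and ILMN_2454420 on 0. The remaining genes named by the rule did not pass. The apoptotic target Bbc3, which encodes Puma, read 10.65, 9.92 and 9.38 against 7.29, 7.93 and 7.36, a difference of 2.45 ± 0.39 (adjusted p = 0.0977), while a second tested probe gave only 0.64 ± 0.25. Apaf1, the scaffold of the apoptosome, read 9.46, 9.05 and 8.62 against 7.68, 7.70 and 7.29, a difference of 1.49 ± 0.31 (adjusted p = 0.203), and a second bright probe gave 1.59. The groups were apart for both genes. Gtse1, a microtubule-associated protein of G2 that restrains p53, differed by 1.56 ± 0.49 (adjusted p = 0.573), with another probe at 0.97. The growth arrest gene Gadd45a differed by 0.75 ± 0.26 (adjusted p = 0.676), with another probe at 0.47.

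The arrest target Cdkn1a, named after its values were seen, read 11.18, 11.02 and 10.68 in cKO and 10.34, 10.49 and 10.78 in controls. Control replicate 3 exceeded cKO replicate 3, and the difference was 0.42 ± 0.27 (interval -0.21 to 1.06; adjusted p = 0.766). The repair targets Rrm2b and Xpc, also named after their values were seen, were the 2 with cKO below control, at -0.47 ± 0.28 and -0.33 ± 0.24 without passing.

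Of the 25 regulators, 24 had a probe and 21 were tested. None passed, 11 differences were positive and 10 negative, and the median was 0.11, close to that of all tested genes. Cdkn2a, whose locus encodes Arf as well as the CDK inhibitor Ink4a, read 7.43, 6.95 and 6.89 in the cKO group and 6.13, 6.03 and 5.44 in the control group by ILMN_1226950. These groups did not overlap, and the difference was 1.22 ± 0.31 (adjusted p = 0.357). A second tested probe of the gene overlapped between the groups, at 0.36 ± 0.28. The third Cdkn2a probe, ILMN_1227342, was detected on no array. Which of the 2 products each probe reads was not determined. The checkpoint kinase gene Chek1 was within background on all controls by ILMN_3009652, which entered the test only through the cKO arrays, where it was higher. By this dim probe it was at least 1.28-fold higher in cKO (adjusted p = 0.685 in limma). Its other probes, ILMN_2630974 and ILMN_2666965, were detected on no array. The acetyltransferase gene Ep300 differed by -1.09 ± 0.51 on its brightest probe and by -0.13 ± 0.28 on a second tested one. Ppp1r13b, which encodes the p53 cofactor ASPP1, differed by -1.20 ± 0.62. For both genes the groups overlapped and the adjusted p of the brightest probe was 0.766. On Ppp1r13b, cKO replicate 1 read 6.47 where the other 5 arrays read 8.27 to 9.52. No probe of Trp63 or Trp73 was tested. Over the 50 tested targets and regulators together, the median was 0.18, and 0.03 without control replicate 3.

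**Figure D4:**
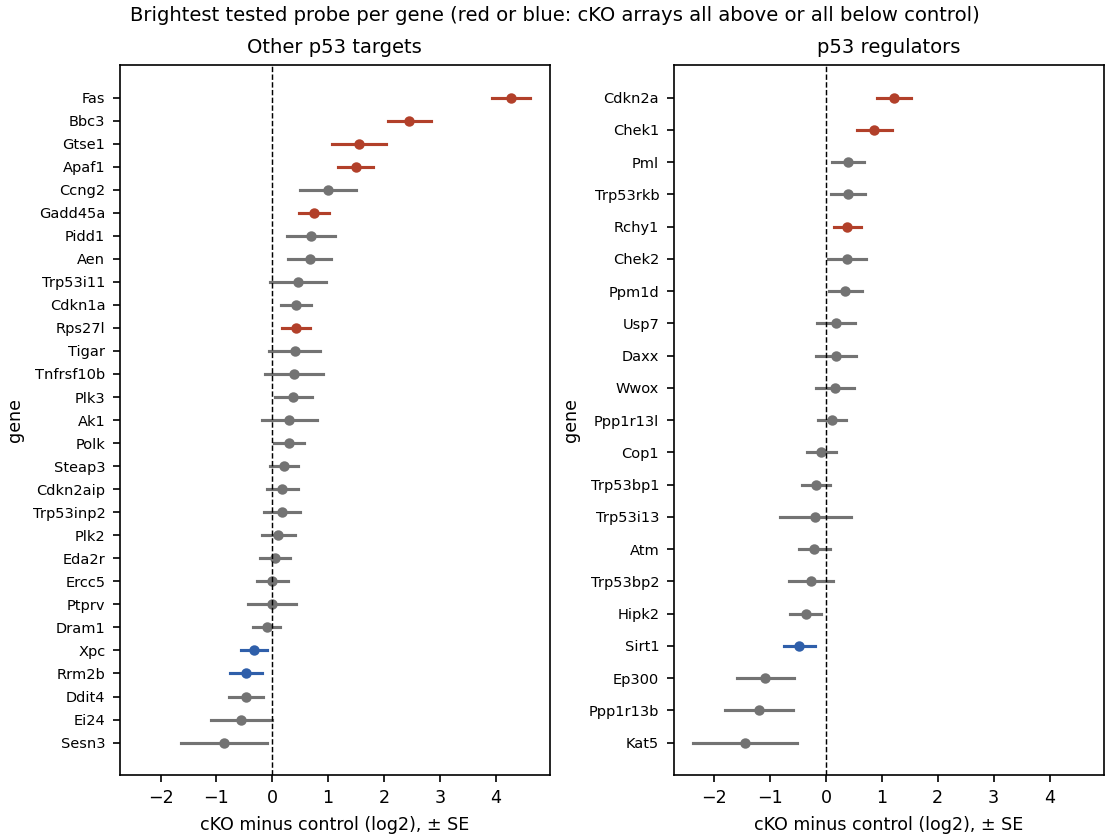
Difference cKO minus control on the log2 scale (horizontal axes) with its standard error for the brightest tested probe of 29 further p53 targets and 21 p53 regulators (vertical axes); red and blue mark genes whose cKO arrays all lay above or all below the controls. Fas, Bbc3, Gtse1 and Apaf1 lead the targets, and the regulators lie on both sides of 0.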

How the data were processed

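Transcript levels were measured on 6 Illumina bead arrays, 3 per group. Per the file headers, the deposited scanner tables give for each probe a mean intensity, the deviation between beads, a bead number and a detection score; the submitters' processing notes name BeadStudio. A score over 0.95 was taken as detection. The deposited series table holds log2 values, which equalled log2 intensities scaled to the 75th percentile of their array and then median-centred by probe (largest deviation 0.000395). No source used here names the tool for that step. Its column medians were 0.244, -0.022 and -0.194 (cKO) and 0.040, 0.098 and -0.301 (control). Through these values all 45281 scanner probes were paired with platform probe IDs, 1 to 1; 34885 had 1 gene symbol, 18 several and 10378 none. Median bead number was 43 to 44 per probe and array, and 43.0% to 53.5% of probes were detected. The number of arrays limits the precision.

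Background correction and quantile normalisation of the intensities used neqc (limma 3.58.1, R 4.3.3; offset 16). Probes detected on at least 3 arrays were tested with lmFit and eBayes, two-sided, group as the only term, with Benjamini-Hochberg adjustment over all 21805 tested probes at 0.05. The fit was tested on simulated data with noise drawn independently for each probe and array. Deviations shared between probes or between arrays were not simulated. Differences are cKO minus control, intervals are 95%, and where 1 probe stands for a gene it is the tested probe with the highest mean over all arrays. Named were all member and Rb1 probes, pathway genes that passed, up to 4 further targets and 4 regulators with the smallest p, and the 3 genes nearest Ccng1 in profile. Same-numbered arrays deviated together (correlations 0.262, 0.410 and 0.473 across probes), and the numbers were entered as a block in an alternative. Differently numbered arrays were not compared in this way, so these correlations do not establish pairs. The labels do not say what a number stands for. Alternatives covered background correction, scaling, the deposited log2 values, the filter, 1 probe per gene and arrays left out. Members and lists were chosen with earlier results of these data known.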

Additional observations from a re-analysis of the deposited data

How the results depend on the processing

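No member probe was called under any of the 15 alternatives run, and none was below 0.153 in adjusted p. The probes called higher were 56 with 1 probe per gene, 13 on uncorrected intensities, 9 with normexp at offset 50, 1 when dim probes were kept in, 0 with the replicate block and 6 without both arrays that stood apart, and 0 to 15 with 1 array left out; 0 were lower in each. The replicate block changed no call among the members. The median over the member genes ran from 0.29 to 0.57 with 1 array left out (0.29 without cKO replicate 1), and that over the other p53 pathway genes (0.18 as reported) from 0.028 to 0.31; without both arrays that stood apart the latter was 0.0078. Several differences turned sign. Most of these were near 0 as reported, but Ddb2 ILMN_1229502 (-0.73 as reported) and Phlda3 ILMN_2923607 (0.95 as reported) were not. Trp53inp1 ILMN_2506012 was 0.068 with median scaling and 0.045 with the deposited log2 values. It was 0.45 without both arrays that stood apart and -0.24 to 0.32 with 1 array left out. Without both arrays Ddb2 ILMN_1229502 was 0.19 and Mdm4 ILMN_1257423 -0.54. With 1 array left out, Mdm4 ILMN_1257423 ran from -0.23 to 0.48, Ddb2 ILMN_2791769 from -0.19 to 0.14, Mdm2 ILMN_1229882 from -0.10 to 0.065 and Phlda3 ILMN_2923607 from -0.11 to 1.93. The cause of these shifts was not tested. Median scaling put the median of all tested probes at 0.13, against 0.08 as reported. Signal near background on most arrays limits all 3 Sesn2 probes and the untested probes of Mdm4, Phlda3 and Ddb2, each seen on at most 2 arrays.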
